A study of Mus musculus with 6 samples.

Results

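The lysosomal hydrolases and activators described here are 36 mouse genes, chosen by a fixed list of symbols that was matched to the 45706 Ensembl gene identifiers of the deposited count table. The list holds glycosidases, sulfatases, lipases, peptidases, a phosphatase, a nuclease and the small proteins that help them, and leaves out cathepsins B to Z. All 36 symbols matched 1 identifier each. All 36 also passed the filter on low counts, with no fewer than 264 reads of any of them in any library.

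RNA was sequenced from mouse bone marrow in 2 groups. Conditioned medium is medium in which tumour cells had grown. It came from 4 lines of a mouse model of clear cell renal cell carcinoma (ccRCC), namely VpR83, VpR99, VpR126 and VpR2020. Each line gave 1 library, so the 4 lines serve as the replicates of the group and differences between single lines have no test. Control medium was represented by 2 libraries, replicates 1 and 2. The series' design text names fresh marrow as the comparator where the sample labels name control medium, and where it is fresh marrow, culture and medium cannot be told apart. The count table's headers for the 2 controls name bone marrow and no medium. Those for VpR83, VpR99 and VpR126 also carry the tags Ctrl, T1 and LT2, which are not explained. Strain, age, culture time and whether libraries came from separate animals are not stated, so p-values reflect only how these 6 libraries vary, which may be technical.

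Lysosomal hydrolases are made in the endoplasmic reticulum as soluble glycoproteins and mostly carried to the lysosome by mannose 6-phosphate receptors, where acid pH lets them cut sugars, lipids, proteins and nucleic acids. Activator proteins lift lipids out of membranes so that a hydrolase can reach them. Loss of most of these genes in humans causes a lysosomal storage disease. Macrophages, which digest what they engulf, are rich in these enzymes. MiT/TFE transcription factors are known to bind E-box sequences (CACGTG) near the starts of many lysosomal genes.

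The sequences below come from RefSeq promoters (build GRCm38.p6), which run from 250 bases before to 50 bases after each listed start site, and 31 of the 36 members matched the table. They show the E-boxes of the members that have one. Aga, Asah1, Hgsnat, Galns and Plbd2 were not matched. CACGTG, which reads the same on both strands, stood in a promoter of 8 of the 31 members (25.8%), against 2187 of 27025 genes of the whole table (8.09%). It also stood in 3 of 8 cathepsin genes (37.5%) and 3 of 17 further lysosomal hydrolase genes (17.6%) that matched the table. In all 8 members it was part of the longer TCACGTG, searched on both strands, which 1160 genes of the table hold (4.29%). TCACGTGA, which contains both shorter motifs, stood in the promoters of Ctsa and Gla and in 304 genes of the table (1.12%). Each line gives the E-box in capitals with 10 bases on either side, written 5′ to 3′ on the strand of the gene.
Lgmn (chr12:102439126-102439151, minus strand): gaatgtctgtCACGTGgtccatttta
Naglu (chr11:101070011-101070036, plus strand): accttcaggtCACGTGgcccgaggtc
Ctsa (chr2:164833751-164833776, plus strand): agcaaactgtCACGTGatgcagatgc
Ctsa (chr2:164833768-164833793, plus strand): tgcagatgctCACGTGaccagagcta
Sgsh (chr11:119355524-119355549, minus strand): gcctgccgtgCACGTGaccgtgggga
Gla (chrX:134601217-134601242, minus strand): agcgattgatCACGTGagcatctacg
Gla (chrX:134601184-134601209, minus strand): agatctcggtCACGTGagcaactctc
Gaa (chr11:119267813-119267838, plus strand): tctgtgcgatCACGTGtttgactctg
Glb1 (chr9:114401020-114401045, plus strand): gcttctgagtCACGTGgcctacagag
Arsa (chr15:89477425-89477450, minus strand): aactcagtgtCACGTGttgtctgctc

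Counted from the start site, with negative positions before it, the capitals began at -49 in Lgmn, -73 in Naglu, -29 in Sgsh, -140 in Gaa, -48 in Glb1 and -16 in Arsa. Ctsa has an E-box at -12 and another past the start site, and Gla has them at -227 and -194. Lgmn has more than 1 listed start site, and its E-box belongs to only one of them. All 8 RefSeq start sites lie inside the GENCODE bounds of their gene. The E-box windows of Lgmn and Ctsa lie wholly within those bounds, those of Naglu, Sgsh and Arsa partly (25, 13 and 1 of their bases), and those of Gaa, Glb1 and Gla outside. All 8 of these members were called higher in conditioned medium (test below), with a median log2 fold change of 2.40. The 23 members with a promoter and no CACGTG had a median of 1.82, and 20 of them were called higher. The 5 members with no promoter entry had a median of 1.33. Log2 fold changes ranged from 1.40 to 5.34 with CACGTG and from -0.29 to 4.22 with a promoter and no CACGTG. The difference between them was not tested. A match is a description of letters in a window and says nothing of binding. The 250 bases before the start site are shown next for the member with the largest rise (Lgmn, at the start site with the E-box, in capitals), for the second largest (Lipa) and for a member that was not called (Smpd1). Lipa and Smpd1 hold no CACGTG there.
Lgmn (chr12:102439093-102439342, minus strand): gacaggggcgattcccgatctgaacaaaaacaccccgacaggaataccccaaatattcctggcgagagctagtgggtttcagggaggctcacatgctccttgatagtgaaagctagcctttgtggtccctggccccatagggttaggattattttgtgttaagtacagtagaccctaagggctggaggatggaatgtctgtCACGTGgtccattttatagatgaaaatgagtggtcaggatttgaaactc
Lipa (chr19:34527475-34527724, minus strand): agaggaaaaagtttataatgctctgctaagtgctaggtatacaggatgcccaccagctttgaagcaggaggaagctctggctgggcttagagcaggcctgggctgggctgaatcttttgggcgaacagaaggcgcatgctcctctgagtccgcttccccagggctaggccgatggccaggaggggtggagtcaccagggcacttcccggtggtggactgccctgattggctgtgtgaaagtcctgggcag
Smpd1 (chr7:105554110-105554359, plus strand): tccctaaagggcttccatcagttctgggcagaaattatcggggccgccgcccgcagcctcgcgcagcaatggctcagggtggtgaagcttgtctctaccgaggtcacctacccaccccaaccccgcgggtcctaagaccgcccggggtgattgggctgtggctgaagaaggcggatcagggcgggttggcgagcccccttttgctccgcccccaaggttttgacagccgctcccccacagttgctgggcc

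Counts were scaled to CPM, the reads of a gene relative to all reads of its library, with TMM factors, which correct library totals for differences in composition. A gene was called where edgeR's quasi-likelihood test gave a Benjamini-Hochberg adjusted p below 0.05 over all 15141 genes tested. Library totals lay between 18629708 and 28055913 reads in 5 libraries and at 129120559 in VpR99. Fold changes are log2 ratios of conditioned over control medium ± SE. Of all genes tested, 22.5% were called higher (3410) and 19.7% lower (2983), 42.2% in all. These counts were 2738 and 4104 with upper-quartile factors, and 2627 and 4171 with library totals alone. The median of all genes then lay at -0.22 and -0.26 on the log2 scale, in place of -0.01.

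Most of the hydrolases and activators rose in conditioned medium. By edgeR's test 31 of the 36 were called higher (22.5% of all genes were) and 0 lower (19.7% of all genes were), so 31 were called in either direction (42.2% of all genes were). The remaining 5, Hgsnat, Smpd1, Galns, Arsb and Ppt2, were not called. At an unadjusted p below 0.05, 32 were higher and 0 lower, and the share of all genes at that threshold was not computed. DESeq2 and limma voom called 32 and 31 members higher, with 0 lower in both. Of all 15141 genes they called 3938 and 3142 higher and 3465 and 3245 lower. The median log2 fold change of the 36 was 2.02, against -0.01 for all genes tested. In 32 members all 4 conditioned libraries lay above both controls, an arrangement found in 32.0% of all genes tested. The summed level of the members was 29699, 22761, 36895 and 38915 CPM under VpR83, VpR99, VpR126 and VpR2020 medium, against 4892 and 5215 CPM in control replicates 1 and 2. Prosaposin made up much of this sum, and without it the sums were 14422, 10498, 15377 and 16784 CPM in conditioned medium and 2771 and 2901 CPM in control medium. Without control replicate 1 or 2 fewer members were called higher. The median log2 fold change of the 36 was then 1.98 or 1.89, against 0.00 or 0.01 for all genes tested. In those fits the single control left is taken to have the same variance as the conditioned group.

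**Figure D1:**
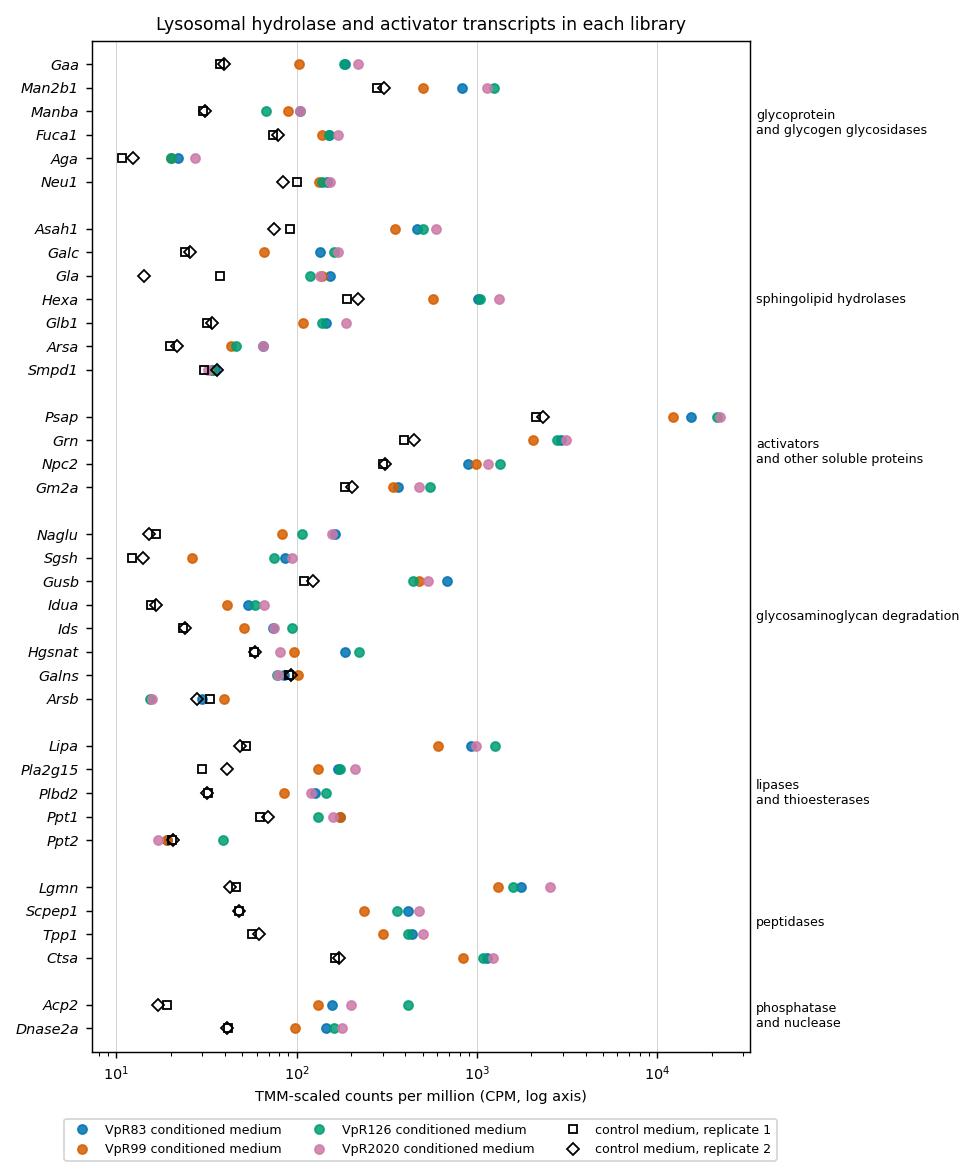
TMM-scaled CPM (log axis) of the 36 members in each library, ordered by role and, within a role, by fold change. Filled circles are the 4 conditioned libraries, coloured by tumour line, and open squares and diamonds are control replicates 1 and 2. In 32 members all circles lie to the right of both controls, and the 4 with overlap are Smpd1, Galns, Arsb and Ppt2.

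Markers of several cell types also changed, in both directions. All 12 macrophage markers examined were called higher, with a median log2 fold change of 4.82 and a summed level of 7156 to 16564 CPM in conditioned medium, against 495 to 523 CPM in control medium. Of 12 neutrophil markers 7 fell, and their sum was 2031 to 8426 CPM in conditioned and 39593 to 40932 CPM in control libraries. Erythroid markers fell in 10 of 10 cases, to sums of 0.519 to 4.73 CPM against 1988 to 4206 CPM, with 3 of them at 0 counts in every conditioned library. T and NK cell markers fell in 8 of 8 cases (4.15 to 16.9 CPM, against 120.4 to 132 CPM) and B cell markers in 6 of 8 (43.4 to 362 CPM, against 1016 to 1178 CPM). The 5 monocyte markers were not called, with sums of 1254 to 3421 CPM against 1848 to 1906 CPM. Of 8 osteoclast markers 5 were tested and 2 rose, with sums of 238 to 2609.5 CPM against 1564 to 1776 CPM. Mmp9, which is also on the neutrophil list and was not called, made up most of these sums. Without it the osteoclast sums were 29.6, 92.5, 192 and 109 CPM under VpR83, VpR99, VpR126 and VpR2020 medium, against 64.9 and 71.5 CPM in the controls. Atp6v0d2, called higher, was the largest part in conditioned libraries (14.8, 69.3, 128 and 70.6 CPM, against 0.567 and 0.846 CPM in the controls). Acp5, not called, was the largest part in the controls (61.3 and 63.6 CPM) and lower in every conditioned library (12.6, 12.9, 51.8 and 35.8 CPM). The osteoclast sum thus does not show a shared direction of the list. The neutrophil sums without Mmp9 were 1823 to 8142 CPM in conditioned and 37889 to 39433 CPM in control libraries. Epithelial and renal tumour markers had sums of 3.71 to 18.1 CPM against 20.7 to 22.6 CPM. Of these 8, 5 were tested and 3 fell, and 2 were at 0 counts in all conditioned libraries. In bulk RNA a change in the share of a cell type and a change in RNA per cell cannot be told apart, and the part of cell composition in the hydrolase results was not tested.

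Peptidases had the highest median change of any role with more than 2 members, and all 4 were called higher (median 2.88). Legumain, encoded by Lgmn (chromosome 12, 102394084 to 102439813, GRCm38), cuts proteins after asparagine and matures several cathepsins. It had 1744, 1308, 1586 and 2542 CPM under VpR83, VpR99, VpR126 and VpR2020 medium, against 46 and 42.9 CPM in control replicates 1 and 2. The lowest conditioned library thus stood far above both controls, and the fold change of 5.34 ± 0.38 was the largest of the 36 members (edgeR adjusted p = 0.00049). Ctsa (chromosome 2, 164832873 to 164841032) encodes cathepsin A, a carboxypeptidase that also shields β-galactosidase and neuraminidase 1 from breakdown. Its levels were 1139, 833, 1079.9 and 1224 CPM in conditioned medium and 163 and 171 CPM in control medium, with no overlap and the smallest change of the group (2.68 ± 0.23, adjusted p = 0.00080). Tpp1, which removes tripeptides from protein ends, rose by 2.81 ± 0.26. The serine carboxypeptidase gene Scpep1 rose by 2.95 ± 0.32.

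All 4 activators and related soluble proteins were called higher (median 2.26). Psap (chromosome 10, 60277627 to 60302597) encodes prosaposin, which is cut into the saposins that present sphingolipids to their hydrolases. It had 15277, 12264, 21518 and 22131 CPM in the conditioned libraries (VpR83, VpR99, VpR126, VpR2020), against 2121 and 2314 CPM in the controls, a fold change of 3.0 ± 0.38 (edgeR adjusted p = 0.0020). The groups stood well apart, and VpR99 was the lowest conditioned library. Grn (chromosome 11, 102430315 to 102437048), which encodes progranulin, a binding partner of prosaposin in transport to the lysosome, had 2912, 2032, 2790.2 and 3123 CPM in conditioned medium. In control medium Grn had 394 and 448 CPM (2.69 ± 0.27, adjusted p = 0.0011). The sterol carrier gene Npc2 rose by 1.84 ± 0.23. Gm2a encodes the GM2 activator, which presents GM2 ganglioside to β-hexosaminidase A. It changed least of the 4, with 364, 344, 548 and 479 CPM in conditioned libraries against 185 and 202 CPM in the controls (1.16 ± 0.24, adjusted p = 0.011). Gm2a was not called without control replicate 1 or 2 (adjusted p = 0.096 and 0.073, range over alternatives 0.00012 to 0.096).

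Sphingolipid hydrolases rose with the exception of acid sphingomyelinase. Of 7 members 6 were called higher (median of the 7, 2.28). Asah1 (chromosome 8, 41340197 to 41374773), the acid ceramidase gene, had 463, 351, 504 and 593 CPM under VpR83, VpR99, VpR126 and VpR2020 medium, against 91.4 and 74.9 CPM in control replicates 1 and 2 (2.52 ± 0.27, edgeR adjusted p = 0.0013). Hexa, the gene of the α subunit of β-hexosaminidase A, had 1017, 573, 1045 and 1323 CPM in conditioned medium and 190.0 and 219 CPM in control medium (2.28 ± 0.36, adjusted p = 0.0045). In both genes the groups did not overlap and VpR99 was the lowest conditioned library. The galactocerebrosidase gene Galc and the β-galactosidase gene Glb1 rose by 2.42 ± 0.41 and 2.15 ± 0.24. Arsa, the gene of arylsulfatase A, which removes sulfate from sulfatide, changed least among those called, with 65.4, 43.2, 46 and 65.2 CPM in conditioned libraries and 19.8 and 21.8 CPM in the controls (1.40 ± 0.24, adjusted p = 0.0055).

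Gla, the α-galactosidase A gene on chromosome X, rose by 2.39 ± 0.40 and was the 1 member whose control libraries differed by over 1.5-fold, a feature singled out after its values were seen. It had 153, 138, 119 and 134 CPM in conditioned medium, against 37.6 CPM in control replicate 1 and 14.3 CPM in replicate 2. Without control replicate 1 the log2 fold change of Gla was 3.24, and it stayed called under all 13 alternatives (adjusted p 2.6e-08 to 0.018). Smpd1 (chromosome 7, 105554360 to 105558389) encodes acid sphingomyelinase, which turns sphingomyelin into ceramide. It had 35.5, 33.8, 33.9 and 32.4 CPM in the conditioned libraries and 30.5 and 36.1 CPM in the controls. All conditioned values of Smpd1 lay between the 2 controls. Its log2 fold change was 0.03 ± 0.14 (edgeR adjusted p = 0.89), and turned to -0.18 with upper-quartile factors, to -0.22 with library totals alone and to -0.09 without control replicate 1. Without control replicate 1 Hexa, Galc and Arsa were not called (adjusted p = 0.055, 0.060 and 0.062, the highest of their ranges from 8e-09, 6.5e-08 and 7.1e-06), and neither was Galc without control replicate 2 (0.053).

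**Figure D2:**
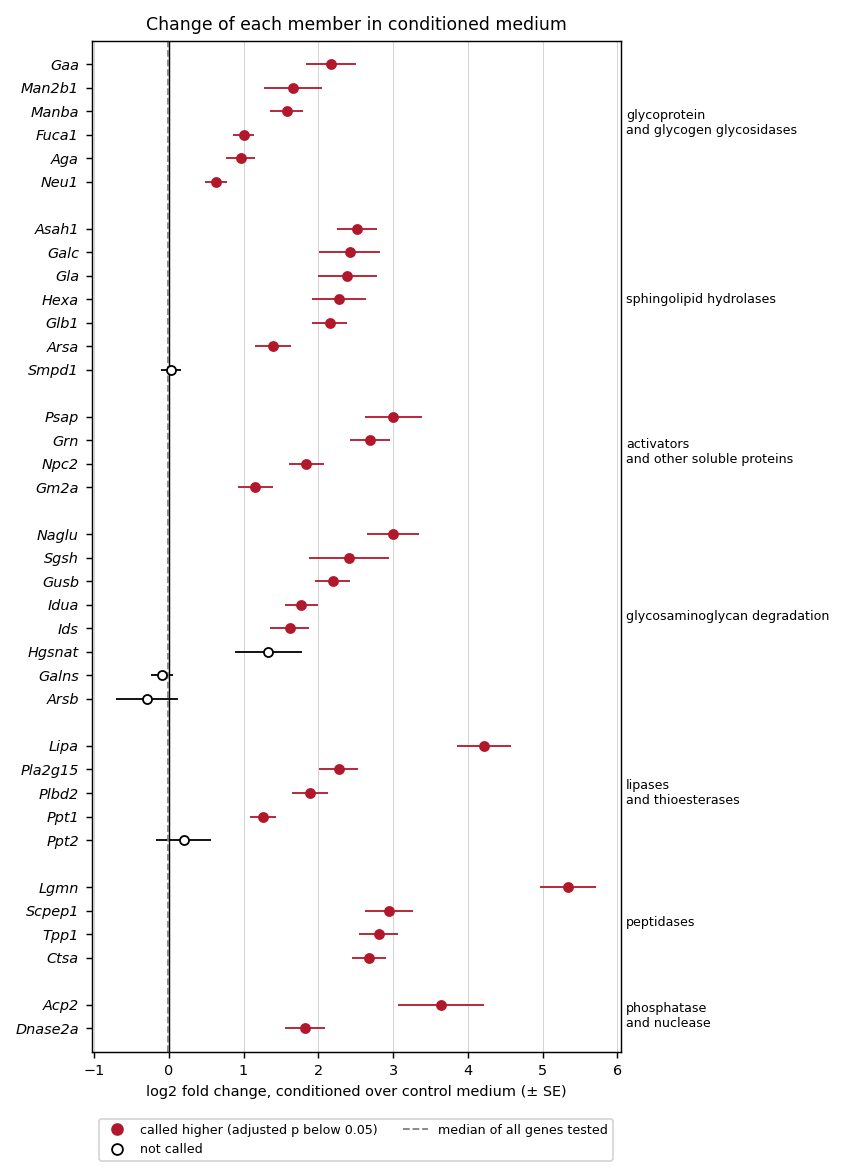
Log2 fold change of each member, conditioned over control medium, with bars of 1 SE, ordered by role. Red points were called higher and open points were not called, and the dashed line is the median of all genes tested (-0.01). Lgmn (5.34), Lipa (4.22) and Acp2 (3.64) lie farthest to the right, and Smpd1, Galns, Arsb and Ppt2 lie within 0.29 of 0.

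Enzymes of glycosaminoglycan breakdown were divided. Of 8 members 5 were called higher and 3 were not called (median of the 8, 1.70). Heparan sulfate is taken apart from its end by a chain of enzymes. In this chain Ids and Sgsh remove sulfate, and Idua and Gusb remove sugar acids. Hgsnat adds an acetyl group to glucosamine, and Naglu then removes the acetylated sugar. Naglu (chromosome 11, 101070012 to 101077672) rose most, with 163, 82.8, 107 and 157 CPM under VpR83, VpR99, VpR126 and VpR2020 medium, against 16.7 and 15.2 CPM in the controls (3.0 ± 0.35, edgeR adjusted p = 0.0017). The β-glucuronidase gene Gusb and the α-iduronidase gene Idua rose by 2.19 ± 0.24 and 1.77 ± 0.22. Ids, the iduronate sulfatase gene on chromosome X, had the smallest change of those called, with 73.9, 50.9, 94.2 and 75.3 CPM in conditioned and 23.6 and 24.2 CPM in control libraries (1.62 ± 0.26, adjusted p = 0.0045). The sulfamidase gene Sgsh rose by 2.41 ± 0.54 and, picked out after its values were seen, had the widest conditioned spread of the 36 members. Its highest conditioned library was 3.57-fold above its lowest, with 86.1, 26.3, 74.9 and 93.7 CPM in conditioned medium and 12.2 and 14.1 CPM in control medium. Sgsh was not called without control replicate 1 or 2 (adjusted p = 0.11 and 0.085, range 1.5e-05 to 0.11), nor was Ids without replicate 1 (0.052, range 6.4e-07 to 0.052).

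Hgsnat, the membrane-bound acetyltransferase gene, had 185, 97.3, 223 and 81.1 CPM in conditioned libraries and 58.1 and 58.8 CPM in the controls. All conditioned values were above both controls, but they differed 2.76-fold among themselves. The change of 1.33 ± 0.45 missed the threshold (edgeR adjusted p = 0.055). It was called by DESeq2 and without VpR99 or VpR2020 (adjusted p = 0.011, 0.043 and 0.031, range over alternatives 0.011 to 0.22). Galns (chromosome 8, 122578242 to 122611463), whose sulfatase acts on keratan sulfate and chondroitin 6-sulfate, had 85.2, 102, 77.9 and 79 CPM in conditioned and 90.6 and 93 CPM in control medium (-0.09 ± 0.15, adjusted p = 0.64). Arsb (chromosome 13, 93771630 to 93943016), whose sulfatase acts on dermatan and chondroitin 4-sulfate, had 29.8, 39.6, 15.3 and 15.7 CPM in conditioned and 33.3 and 28.2 CPM in control medium. VpR99 lay above and VpR126 and VpR2020 lay below both controls of Arsb, and the change was -0.29 ± 0.42 (adjusted p = 0.60). Of the 5 sulfatase genes among the members, Arsa, Ids and Sgsh were thus called higher and Galns and Arsb were not called.

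Of 5 lipase and thioesterase genes 4 were called higher (median of the 5, 1.89). Lipa (chromosome 19, 34492318 to 34527474) encodes lysosomal acid lipase, which frees cholesterol and fatty acids from lipoprotein lipids. It had 922, 607, 1261 and 985 CPM in conditioned libraries (VpR83, VpR99, VpR126, VpR2020), against 52.3 and 48.6 CPM in the controls. Every conditioned value of Lipa exceeded both controls, and the mean in conditioned medium was 18.7-fold that in control medium (log2 fold change 4.22 ± 0.36, edgeR adjusted p = 0.00079). The lysosomal phospholipase gene Pla2g15 and the phospholipase B-like gene Plbd2 rose by 2.27 ± 0.26 and 1.89 ± 0.24. The palmitoyl-protein thioesterase gene Ppt1, whose enzyme strips fatty acids from proteins, changed least among those called, with 173, 174, 131 and 159 CPM in conditioned and 62.9 and 69.8 CPM in control medium (1.26 ± 0.17, edgeR adjusted p = 0.0028). Its relative Ppt2 had 19.2, 19, 39.3 and 17.1 CPM in conditioned medium and 20.5 and 20.7 CPM in control medium. VpR126 was the one conditioned library above both controls of Ppt2. The change of 0.20 ± 0.37 was not called (adjusted p = 0.68) and turned to -0.01 with upper-quartile factors, to -0.05 with library totals alone and to -0.15 without VpR126. In the annotation 36.6% of the exon bases of Ppt2 are shared with Gm20460, a transcript on the same strand with 0 counts, so the value of Ppt2 is uncertain.

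Glycosidases of glycoproteins and glycogen rose by smaller steps, with all 6 called higher and a median of 1.29. Gaa (chromosome 11, 119267887 to 119285454), the acid α-glucosidase gene that breaks down glycogen, had 186, 103, 184 and 219 CPM under VpR83, VpR99, VpR126 and VpR2020 medium, against 37.5 and 39.4 CPM in the controls (2.17 ± 0.33, edgeR adjusted p = 0.0038). Neu1 (chromosome 17, 34931253 to 34935953), the sialidase gene, had 147, 133, 138 and 154 CPM in conditioned medium and 101 and 84.1 CPM in control medium. Its groups did not overlap, and its change of 0.63 ± 0.15 was the smallest of the 31 members called (adjusted p = 0.016). The α-mannosidase gene Man2b1 rose by 1.66 ± 0.39, the β-mannosidase gene Manba by 1.58 ± 0.22 and the fucosidase gene Fuca1 by 1.0 ± 0.14. Aga, whose enzyme splits the sugar from asparagine, rose by 0.96 ± 0.20 and averaged 22.4 ± 3.44 CPM in conditioned medium (SD, n = 4) and 11.5 ± 1.23 CPM in control medium (SD, n = 2). Neu1, Glb1, Galns and Ctsa encode proteins known to form a complex in the lysosome, and their log2 fold changes were 0.63, 2.15, -0.09 and 2.68 in that order. Man2b1, Neu1 and Aga were not called without control replicate 1 (adjusted p = 0.12, 0.066 and 0.10) or replicate 2 (0.099, 0.14 and 0.062). Neu1 was also not called with upper-quartile factors (0.058) or library totals alone (0.066). The ranges over alternatives were 0.00017 to 0.12 for Man2b1, 0.0017 to 0.14 for Neu1 and 0.00041 to 0.10 for Aga.

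Both the phosphatase and the nuclease gene were called higher. Acp2 (chromosome 2, 91202885 to 91214098), the lysosomal acid phosphatase gene, had 157, 132, 416 and 199 CPM in conditioned libraries, against 19.2 and 17 CPM in the controls. All 4 exceeded the controls, with VpR126 far above the other media, and the change was 3.64 ± 0.57 (edgeR adjusted p = 0.0043). Dnase2a (chromosome 8, 84908560 to 84922915) encodes the acid nuclease with which mouse marrow macrophages digest the nuclei expelled by red cell precursors. It had 146, 97.4, 161 and 179 CPM in conditioned medium and 41.9 and 40.9 CPM in control medium (1.82 ± 0.27, adjusted p = 0.0035). Dnase2a was thus higher in the libraries in which erythroid markers were at or near 0. This held for every member called higher, and a link to the erythroid markers was not tested.

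Line by line, the rise was smallest under VpR99 medium. The median of the 36 members over the mean of both controls was 2.06, 1.42, 2.11 and 2.15 log2 units under VpR83, VpR99, VpR126 and VpR2020 medium. VpR99 gave the lowest conditioned level in 26 of the 36 members, against 26.7% of all genes tested. It was also the lowest in 46.1% of the 3410 genes called higher in the whole table, so low values under VpR99 medium were not limited to hydrolases. VpR99 had the lowest macrophage marker sum (7156 CPM) and the highest neutrophil marker sum (8426 CPM) of the 4 conditioned libraries, and the part of these in its hydrolase levels was not tested. VpR2020 gave the highest level in 19 members, VpR126 in 9, VpR83 in 5 and VpR99 in 3. Of all genes tested, these media were the highest in 22.5%, 31.7%, 16.9% and 28.9%, in that order. The 3 highest under VpR99 medium were Galns, Arsb and Ppt1, the last at nearly the level of VpR83 (174 against 173 CPM). Acp2, Lipa, Hgsnat and Ppt2 were among the 9 highest under VpR126 medium. The ratio of the highest to the lowest conditioned library had a median of 1.69 over members and exceeded 2 in 10 of them. That of the higher to the lower control had a median of 1.08. With 1 library per line these differences between media have no replicate check.

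**Figure D3:**
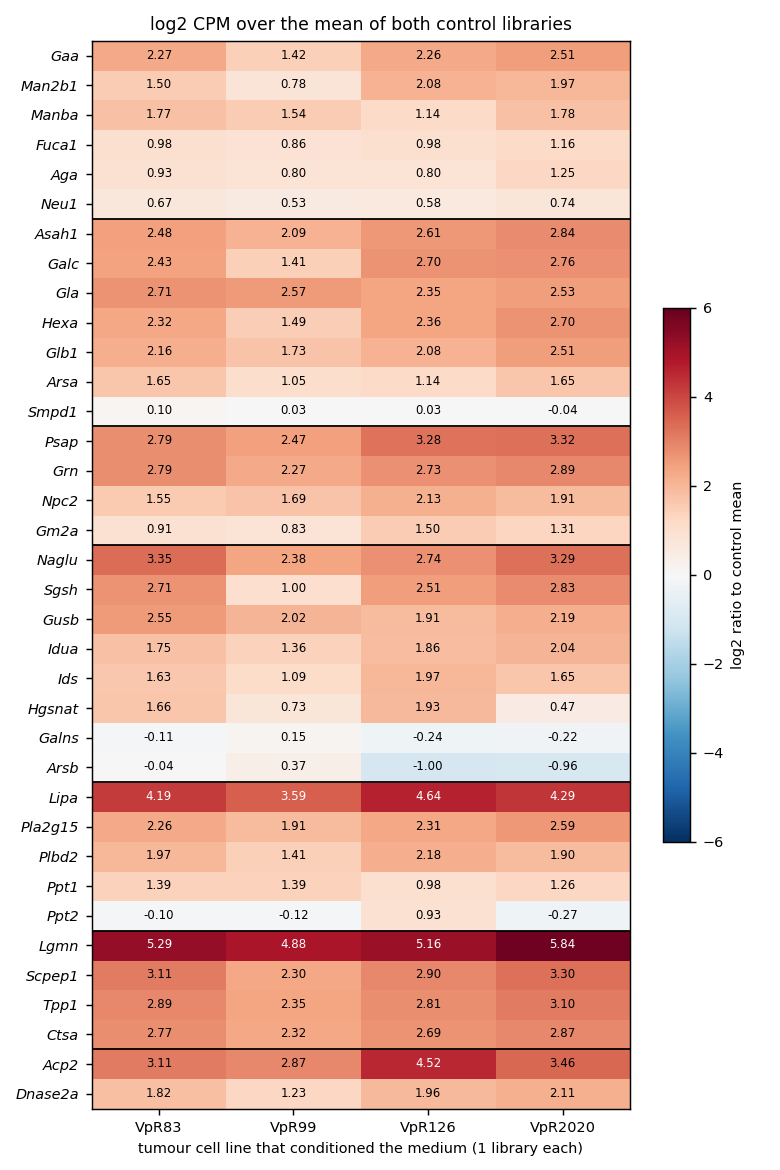
Log2 CPM of each member under each medium minus the mean of both control libraries, with the value printed in the cell and role groups separated by lines. Red cells are above and blue cells below the controls. The VpR99 column is paler than the others in most rows (median 1.42), and Lgmn and Lipa are the darkest rows.

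Levels of different genes were compared as RPKM, which divides by exon length as well as by library size. It was taken from the TMM-scaled CPM and the union exon length in GENCODE M21. That length covers the exons of all annotated transcripts of a gene, so the order of genes depends on the annotation. Psap was the most abundant member per length in both groups, with 6486 ± 1755 RPKM in conditioned medium (SD, n = 4) and 808 ± 49.8 RPKM in control medium (SD, n = 2). Next in conditioned medium came Grn (781 ± 137 RPKM), Lgmn (773 ± 228), Hexa (496 ± 155) and Ctsa (227 ± 35.7). Grn and Lgmn were closer to each other than their spread. In control medium Grn (121 ± 11 RPKM) and Hexa (102 ± 10.1) followed Psap, and Lgmn ranked 14 of 36 with 19.1 ± 0.939 RPKM. Lipa ranked 9 in conditioned and 25 in control medium, and Acp2 19 and 34. Galns moved the other way in this order, ranking 24 in conditioned and 8 in control medium at RPKM values of 32.5 ± 4.18 and 34.6 ± 0.623. The lowest level per length was that of Arsb in conditioned medium (4.16 ± 1.95 RPKM) and of Galc in control medium (1.67 ± 0.0851 RPKM).

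The members lie on 15 chromosomes, with 7 on chromosome 8 and 6 on chromosome 11. No stretch of 200 or more bases at 95% identity or above was found between a member's transcripts and those of a gene elsewhere, only with genes that overlap it. Glb1 shares 5.49% of its exon bases with Tmppe on the same strand (8926 counts in all libraries, against 25806 of Glb1), so the value of Glb1 is uncertain. Ctsa shares 10.5% of its exon bases with the opposite-strand gene Pltp (11025 counts, against 190068 of Ctsa). Ppt1 shares 3.51% with Cap1 on the other strand (205084 counts, against 35526 of Ppt1). Idua shares 2.95% with the opposite-strand gene Dgkq (3024 counts, against 9977 of Idua) and 3.35% with Slc26a1, also opposite (326 counts). Whether counting used strand is not stated, so reads of such opposite-strand pairs, of which Sgsh with Card14 (21.6% of exon bases, 90 counts) and Dnase2a with Mast1 (30%, 134 counts) are others, cannot be told apart where they overlap.

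Genes of the other lysosomal lists moved in both directions. Of 25 further lysosomal hydrolase genes, 24 were tested, 16 rose, 2 fell and 6 were not called, with a median log2 fold change of 1.06. The dipeptidyl peptidase gene Dpp7 rose by 2.96 ± 0.33. Plbd1, a relative of Plbd2, fell by 2.5, with 38.7, 85.1, 101 and 55 CPM in conditioned libraries against 399 and 392 CPM in the controls, the reverse of its relative. The hyaluronidase-like gene Hyal3 fell by 2.20, with 0.329, 0.389, 0.296 and 0.553 CPM in conditioned and 2.17 and 1.41 CPM in control libraries. Of the 21 genes for delivery and maturation of hydrolases 13 rose, 1 fell and 7 were not called (median 1.10). Cln8, whose product moves new hydrolases out of the endoplasmic reticulum, and Scarb2, the carrier of β-glucocerebrosidase, rose most (2.36 ± 0.26 and 1.85 ± 0.36), and the adaptor subunit gene Ap1m1 fell by 0.45. Without control replicate 1 or 2, 8 and 7 of the further hydrolases and 7 and 5 of the delivery genes were called higher. No delivery gene was then called lower, and none was without VpR83 or VpR2020 or when all genes were kept. Of the further hydrolases 1 was called lower without control replicate 1.

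Of 10 cathepsin genes 7 rose and 3 were not called (median 2.77), led by Ctsl (4.86 ± 0.62) and Ctsb (4.64 ± 0.35), lysosomal cysteine proteases that legumain is known to process. Among the 4 MiT/TFE transcription factor genes 3 rose and 1 fell. Mitf had 68.1, 55.3, 91.5 and 70.6 CPM in conditioned libraries and 5.83 and 3.76 CPM in control libraries (3.89 ± 0.32, edgeR adjusted p = 0.00070). Tfec rose by 2.0 ± 0.28. Tfeb had 36.6, 37.6, 51 and 53.4 CPM in conditioned and 69 and 71.8 CPM in control medium (-0.66 ± 0.20, adjusted p = 0.036). Tfeb was not called lower when control replicate 1, control replicate 2, VpR83 or VpR99 was left out or when all genes were kept. The differences between these lists and the 36 members were not tested.

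**Figure D4:**
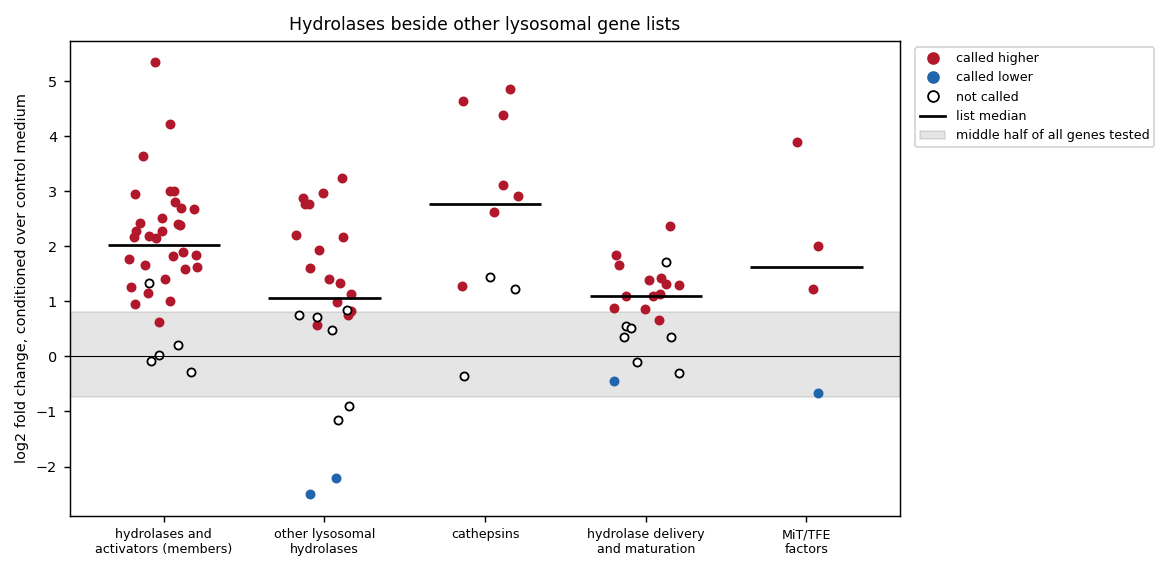
Log2 fold change, conditioned over control medium, of the 36 members and of the tested genes of 4 other lysosomal lists, 1 point per gene, with a bar at each list's median (2.02, 1.06, 2.77, 1.10 and 1.61 in the order drawn). The grey band spans the quartiles of all genes tested (-0.74 to 0.80). Blue points, called lower, appear among the other hydrolases, the delivery genes and the MiT/TFE genes and not among the members or cathepsins.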

How the data were processed

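Total RNA of 6 bone marrow libraries was read into 1 table of raw counts per Ensembl gene, deposited by the authors. Per the submitters' processing notes, reads were trimmed with Trimmomatic 0.38 and aligned with STAR 2.5.2b to GRCm38, and per the labels' protocols a stranded Illumina TruSeq kit was used. For the counting tool, strand setting and annotation release: not given in the sources used here. Symbols were matched through GENCODE M21 (45143 of 45706 identifiers), and unmatched identifiers held 0.0538% to 0.0828% of counts.

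The 4 conditioned libraries were compared with the 2 controls by edgeR 4.0.16 (robust quasi-likelihood test, filterByExpr, TMM, medium as the only term), with Benjamini-Hochberg adjustment over 15141 genes and a threshold of 0.05. SE was taken as |log2 fold change| / √F. Counting error allows up to 0.0232 to 0.161 CPM for a gene at 0 reads (3 counts). Alternatives were DESeq2 1.42.0, limma 3.58.1 (voom), 3 other scalings, no low-count filter, VpR99 thinned to the 25714176 reads of VpR126, and each library left out.

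The members and lists were chosen with earlier results of these data known. Values per library are given for the called members with the largest and smallest change in each role, for every member not called and for the 5 highest per length. In other lists, genes called lower and the 2 largest changes are named, except 1 gene that is not reported here.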

Additional observations from a re-analysis of the deposited data

Results flagged for a closer look

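Ppt2 under VpR126 medium stood apart from the other conditioned libraries, with 39.3 CPM against 17.1 to 19.2 CPM under the other 3 media and 20.5 and 20.7 CPM in the controls. The gap between VpR126 and the next library exceeded Dixon's critical value for 4 libraries. It was the only one of 36 members to do so, and chance alone flags about 1 group in 20. Acp2, at 416 CPM under VpR126 medium against 132 to 199 CPM under the other media, did not pass that criterion. The osteoclast marker sum was also highest under VpR126 medium (2609.5 CPM, against 238 to 924 CPM under the others). Most of it was Mmp9, a gene also on the neutrophil list, with 2417 CPM under VpR126 medium and 209 to 816 CPM under the others. Without Mmp9 the osteoclast sum was 192 CPM under VpR126 medium, of which Atp6v0d2 gave 128 CPM, and 29.6 to 109 CPM under the others. The macrophage, B cell and erythroid sums were also highest under VpR126 medium (16564, 362 and 4.73 CPM). The neutrophil, monocyte, T and NK cell, and epithelial and renal tumour sums were highest under VpR99 medium. The part of any of these in the values of Ppt2 and Acp2 was not tested.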

How the results depend on the processing

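Under 13 alternatives the count of members called higher was 30 to 32 except without a control library (22 and 25), and their median log2 fold change was 1.77 to 2.13. Of the 31 members called, 22 kept the call under every alternative and no called member changed direction. Smpd1 and Ppt2, neither of them called, changed sign (log2 fold changes of -0.18, -0.22 and -0.09 for Smpd1 and of -0.01, -0.05 and -0.15 for Ppt2) with upper-quartile factors, with library totals alone and, in that order, without control replicate 1 for Smpd1 and without VpR126 for Ppt2. With single libraries left out they ranged between -0.09 and 0.17 for Smpd1 and between -0.15 and 0.34 for Ppt2. The cause was not tested. With 1 library left out, 2201 to 7031 of all genes were called, 1283 to 3657 higher and 918 to 3374 lower. The lowest counts (2201 and 2290) were those without a control library, and without a conditioned library 5206 to 7031 were called. With 1 library left out, the further hydrolases gave 7 to 18 genes called higher and 1 to 3 lower, the delivery genes 5 to 14 higher and 0 to 1 lower, and the MiT/TFE genes 0 to 1 lower. Without a low-count filter 0 delivery genes and 0 MiT/TFE genes were called lower. The lowest read count behind a member's value was 264, for Aga in control replicate 2. No paired analysis was possible because the conditioned libraries carry no replicate numbers.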
